A study of Mus musculus with 2 samples.

Results

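The Hoxd cluster was examined in mouse embryonic fibroblasts (MEFs) that lack Bmi1, gene by gene along the order of the cluster. Of the 9 Hoxd genes, 8 had at least 1 probe set whose array annotation names that gene alone, 10 probe sets in all, out of 18194 genes and 34958 such probe sets on the array. The remaining member, Hoxd4, had none. There was 1 array of Bmi1 null MEFs and 1 array of Bmi1 wild-type MEFs, so every difference below is a difference between 2 arrays, without replicate error and without a test. Both lines came from C57BL/6 embryos, were derived from littermates according to the methods of the study, and had been immortalised with a TBX2 expression construct, which according to the methods both carry. The labels give both as male. Embryonic stage was not given in the sources used here, each line is a single culture, and genotype, line and array cannot be told apart.

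Hox genes encode homeodomain transcription factors that specify position along the body axis. In mammals they lie in 4 clusters, and within a cluster the genes are switched on in the order in which they lie on the chromosome, low paralogue numbers anteriorly and early, high numbers posteriorly and late. Polycomb proteins keep Hox genes silent where they are not needed. Bmi1 is a subunit of Polycomb repressive complex 1 (PRC1) and stimulates the ubiquitylation of histone H2A (uH2A), the mark that the study mapped in the same pair of lines. Fibroblasts are known to keep a Hox expression pattern that reflects where in the body they came from. The question put to the arrays was how expression differs when Bmi1 is absent.

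Signals are MAS5 intensities, the linear values that Affymetrix software computes for each probe set, and both arrays had been scaled so that the mean of their central values was 500. A signal of 100 was taken as the floor. A probe set at or below it on both arrays is called not measured and has no fold change, and a probe set below it on 1 array has a fold change that is a lower bound. Bmi1 itself read 2146 in null MEFs against 9933 in wild-type MEFs at its brighter probe set, 4.63-fold lower, and 831 against 931 at the other, 1.12-fold lower. The position of those probes with respect to the Bmi1 deletion was not determined here, so neither value checks the knockout fully. The Y-linked genes Eif2s3y, Uty and Kdm5d were all below the floor in null MEFs (23.3, 26.5 and 15.3) and clearly above it in wild-type MEFs (1683, 1187 and 712), which goes against the male label of the null line. Xist, which marks an inactive X chromosome, read 124 in null and 153 in wild-type MEFs. Tbx2, the gene of the immortalising construct, read 8.03 in null and 23.2 in wild-type MEFs, both under the floor, so the arrays do not show the construct. Whether that probe set can detect the construct was not examined, so the low values do not say that it was silent. The part of these line differences in the Hoxd values was not tested.

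The 5 promoter sequences printed next carry the contrast described below, the 4 Hoxd genes measured on the arrays (Hoxd1, Hoxd8, Hoxd9 and Hoxd10) and, for comparison, Hoxd13 at the posterior end, which was not measured. They come from RefSeq (build GRCm38.p6, chromosome 2, plus strand) and run from 250 bases before to 50 bases after the annotated start of each gene. They lie at chr2:74762730-74763029 (Hoxd1), chr2:74704365-74704664 (Hoxd8), chr2:74697513-74697812 (Hoxd9), chr2:74691641-74691940 (Hoxd10) and chr2:74667975-74668274 (Hoxd13). Capitals mark CpG dinucleotides, because dense CpG is the feature by which Polycomb-regulated promoters are usually classed.
Hoxd1: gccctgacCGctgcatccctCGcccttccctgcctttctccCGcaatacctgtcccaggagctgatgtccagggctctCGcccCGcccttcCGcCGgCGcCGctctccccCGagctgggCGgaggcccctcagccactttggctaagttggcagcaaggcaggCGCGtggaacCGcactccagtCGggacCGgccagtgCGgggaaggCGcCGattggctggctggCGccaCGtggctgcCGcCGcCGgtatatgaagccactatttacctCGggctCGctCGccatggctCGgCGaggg
Hoxd8: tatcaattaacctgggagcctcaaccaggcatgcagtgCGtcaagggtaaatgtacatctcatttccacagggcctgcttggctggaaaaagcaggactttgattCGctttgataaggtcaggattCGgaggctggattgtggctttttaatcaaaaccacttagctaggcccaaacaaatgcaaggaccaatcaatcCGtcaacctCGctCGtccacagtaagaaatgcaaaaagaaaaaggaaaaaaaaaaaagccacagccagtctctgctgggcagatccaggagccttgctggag
Hoxd9: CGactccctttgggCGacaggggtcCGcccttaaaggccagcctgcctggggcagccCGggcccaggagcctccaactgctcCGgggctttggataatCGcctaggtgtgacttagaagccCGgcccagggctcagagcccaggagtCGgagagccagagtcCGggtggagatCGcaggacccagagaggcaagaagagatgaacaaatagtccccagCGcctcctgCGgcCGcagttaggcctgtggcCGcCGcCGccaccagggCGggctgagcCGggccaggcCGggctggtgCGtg
Hoxd10: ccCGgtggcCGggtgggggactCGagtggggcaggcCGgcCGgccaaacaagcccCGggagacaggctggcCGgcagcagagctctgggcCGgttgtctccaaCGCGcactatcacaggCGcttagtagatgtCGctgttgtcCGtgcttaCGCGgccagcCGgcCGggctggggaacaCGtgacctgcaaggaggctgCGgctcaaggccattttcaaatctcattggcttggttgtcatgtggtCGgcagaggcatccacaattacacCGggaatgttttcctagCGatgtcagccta
Hoxd13: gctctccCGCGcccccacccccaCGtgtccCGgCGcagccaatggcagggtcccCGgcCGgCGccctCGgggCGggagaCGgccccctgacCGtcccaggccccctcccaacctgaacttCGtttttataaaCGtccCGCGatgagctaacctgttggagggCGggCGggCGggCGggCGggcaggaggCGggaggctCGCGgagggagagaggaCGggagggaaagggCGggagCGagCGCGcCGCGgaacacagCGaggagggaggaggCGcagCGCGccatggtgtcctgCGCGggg

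CpG content did not separate the measured from the unmeasured genes. The Hoxd1 window held 29 CpG, that of Hoxd10 held 22 and that of Hoxd9 held 20, against a median of 7 over all 32851 promoter windows in the same table. Hoxd8 held only 6, although its transcript was measured on both arrays. The Hoxd13 window held 37, a number reached by 5.58% of all windows, and Hoxd12 and Hoxd3, also not measured, held 13 and 20. Hoxd11 has 2 annotated starts, with 25 and 4 CpG, and Hoxd4 held 4.

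Of the 8 Hoxd genes with a probe set of their own, 4 were measured and all 4 of these were higher by 2-fold or more in Bmi1 null MEFs, while 0 were lower by that much. Over all 11766 genes measured, 5.73% reached 2-fold in the higher direction and 5.16% in the lower. Counted by probe set, 5 of 10 were measured and 5 were at least 2-fold higher, against 5.06% higher and 5.1% lower over all 20620 measured probe sets with 1 gene. The median log2 ratio of the 4 measured genes was 1.59, null over wild-type, against 0.006 over all measured genes, and it depends on the floor, because 1 of its middle values is the lower bound of Hoxd10. One of the 4, Hoxd10, passed the floor only through its null signal, so its presence in the count was bound to be on the higher side. The other 4 genes (Hoxd3, Hoxd11, Hoxd12 and Hoxd13) were below the floor on both arrays and carry no direction.

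**Figure D1:**
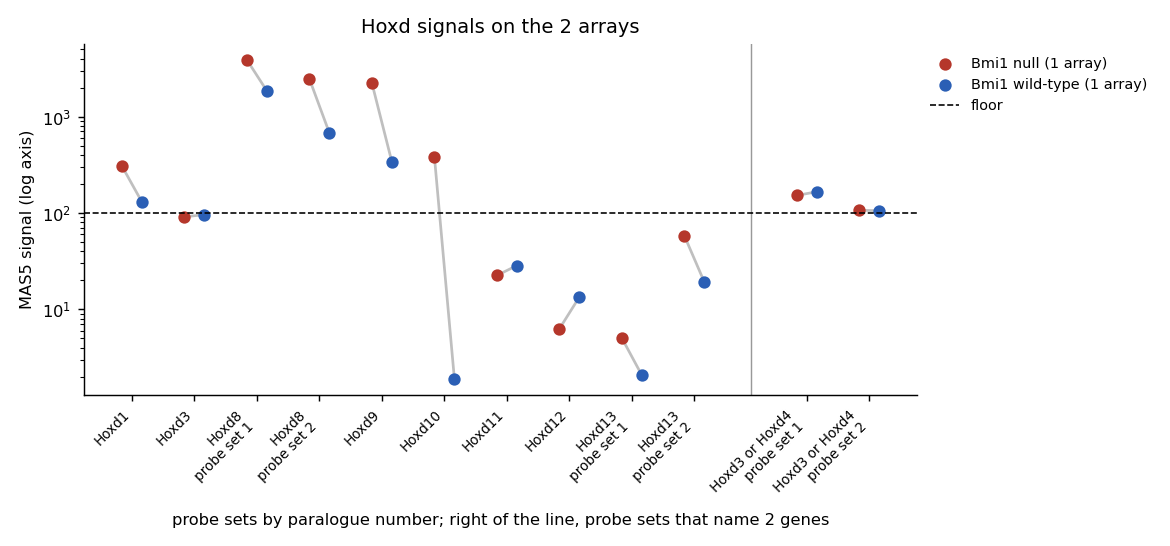
MAS5 signal (log axis) of each Hoxd probe set on the Bmi1 null array (red, left point of each pair) and the Bmi1 wild-type array (blue, right point), ordered by paralogue number, with the floor of 100 as a dashed line and the 2 probe sets that name both Hoxd3 and Hoxd4 at the right. The null point is higher for Hoxd1, both probe sets of Hoxd8, Hoxd9 and Hoxd10, Hoxd3 lies just under the line on both arrays, and Hoxd11 to Hoxd13 lie well under it.

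Hoxd9 showed the largest ratio among the 3 Hoxd genes above the floor on both arrays. This gene acts with its paralogue Hoxa9 in patterning the upper part of the limb, and with further group 9 genes in the mammary gland. It read 2223 in null MEFs and 337 in wild-type MEFs. Both signals were above the floor, so the 6.60-fold higher value (log2 ratio 2.72) is a ratio and not a bound. Ranked by log2 ratio from the highest down, Hoxd9 stood at place 104 of 11766 measured genes, with lower bounds ranked at their value. It has 1 probe set, so no other probe set bears on the value.

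Hoxd10, the next gene towards the posterior end of the cluster, was detected on the null array alone. It is known for its role, together with its group 10 paralogues, in the lumbar skeleton and in the motor neurons of the hindlimb. Its signal was 382 in null MEFs and 1.89 in wild-type MEFs. The wild-type value is far below the floor and has no interpretable size, so the difference is given as at least 3.82-fold higher (log2 ratio at least 1.93). The bound follows from the null signal and the chosen floor. With the floor halved it was a log2 ratio of at least 2.93, above that of Hoxd9, and with the floor doubled, to a factor of 0.4, it was at least 0.93, which is under 2-fold.

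Hoxd8, a gene of the middle of the cluster that is expressed in the trunk, was measured at 2 probe sets. The brighter probe set read 3867 in null MEFs and 1842 in wild-type MEFs, 2.10-fold higher (log2 ratio 1.07). The other read 2454 in null MEFs and 674 in wild-type MEFs, 3.64-fold higher (log2 ratio 1.87). Both were thus higher in the null line, but by amounts that differ by 0.80 on the log2 scale. Between probe sets of 1 gene as bright as these, the SD of a log2 ratio was 0.21 (832 pairs in which even the dimmer probe set reached 2000 on 1 array), so the size of the Hoxd8 difference is less certain than its direction. The second probe set carries the suffix _s_at, which Affymetrix gives to probe sets that can match more than 1 transcript.

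Hoxd1 lies at the anterior end, separated from Hoxd8 by Hoxd3 and Hoxd4. In mice it is known from sensory neurons that detect painful stimuli. Its single probe set read 306 in null MEFs and 130 in wild-type MEFs, 2.36-fold higher (log2 ratio 1.24, place 485 of 11766; Hoxd8 stood at place 611). The wild-type signal lay close to the floor. Where the dimmer probe set of a pair lay between 100 and 500, the SD of a log2 ratio between probe sets of 1 gene was 0.34 (1917 pairs). With that doubled floor the Hoxd1 log2 ratio was 0.61, and with a pseudocount of 100 in place of the floor it was 0.82, both under 2-fold.

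Between these genes the data thinned out. Hoxd3, which is needed for the vertebrae of the neck, read 91.1 in null MEFs and 96.1 in wild-type MEFs, just under the floor on both arrays. Hoxd4, known from the hindbrain and the upper neck vertebrae, is the Hoxd gene on the study's published list of promoters with a Bmi1-dependent uH2A peak, but no probe set names it alone. A pair of probe sets is annotated to Hoxd3 and Hoxd4 together and was left out by the rule. The first of these read 152 in null MEFs and 166 in wild-type MEFs, 1.09-fold lower, and the second read 107 and 105, 1.01-fold higher. These shared probe sets do not say which of the 2 genes they report, and neither came near a 2-fold difference.

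The posterior members were not measured. Hoxd11, which patterns the forearm together with Hoxa11, read 22.5 in null MEFs and 28.5 in wild-type MEFs. Hoxd12, a limb gene as well, read 6.28 in null MEFs and 13.4 in wild-type MEFs. Hoxd13, the gene of the digits and the external genitalia, read 57.9 in null MEFs and 19.1 in wild-type MEFs at one probe set, and 5.02 and 2.07 at the other. Signals this far under the floor have no order, and the arrays cannot tell whether these transcripts were absent from either line or only too rare to be measured.

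The genes next to the cluster were examined because they share its chromosomal surroundings. In the RefSeq gene order, Chn1, Atf2, Atp5mc3 (Atp5g3), Lnpk and Evx2 lie beyond Hoxd13, and Mtx2, Hnrnpa3 and Nfe2l2 beyond Hoxd1. Of 11 neighbours listed, 8 had a probe set of their own, all 8 were measured, and 0 had a ratio or a bound of 2-fold or more. Their median log2 ratio was 0.09, in which Chn1 and Evx2 stand at their lower bounds. The shares over all measured genes were 5.73% higher and 5.16% lower. With 8 genes, a count of 0 does not set the neighbours apart from these shares. Evx2, a homeobox gene that is active with Hoxd13 in digits, read 106 in null MEFs and 70.0 in wild-type MEFs, at least 1.06-fold higher. Lnpk, which shapes the endoplasmic reticulum, read 839 in null MEFs and 1068 in wild-type MEFs, 1.27-fold lower, at its brightest probe set. A dimmer Lnpk probe set read 62.7 and 138, at least 1.38-fold lower. On the other side Mtx2, a mitochondrial outer membrane protein, read 4808 in null MEFs and 3897 in wild-type MEFs, 1.23-fold higher.

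Hoxd3os1 is a noncoding RNA from the opposite strand whose gene overlaps Hoxd3. It read 390 in null MEFs and 278 in wild-type MEFs, 1.40-fold higher (log2 ratio 0.49), at its brighter probe set, and was below the floor on both arrays at the other (90.1 and 70.3). Among the 8 measured neighbours the log2 ratio farthest from 0 was that of Chn1, a Rac GTPase-activating protein, with 178 in null MEFs and 32.1 in wild-type MEFs, at least 1.78-fold higher. For the measured genes, the stretch with at least 2-fold higher signal thus ran through Hoxd10, Hoxd9 and Hoxd8 and recurred at Hoxd1. Of the neighbours, those whose brightest probe set was above the floor on both arrays were under 2-fold there. For Chn1 and Evx2, below the floor in wild-type MEFs, the size of the difference is not bounded from above. The same holds for dimmer probe sets of Lnpk and Nfe2l2, below the floor in null MEFs.

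**Figure D2:**
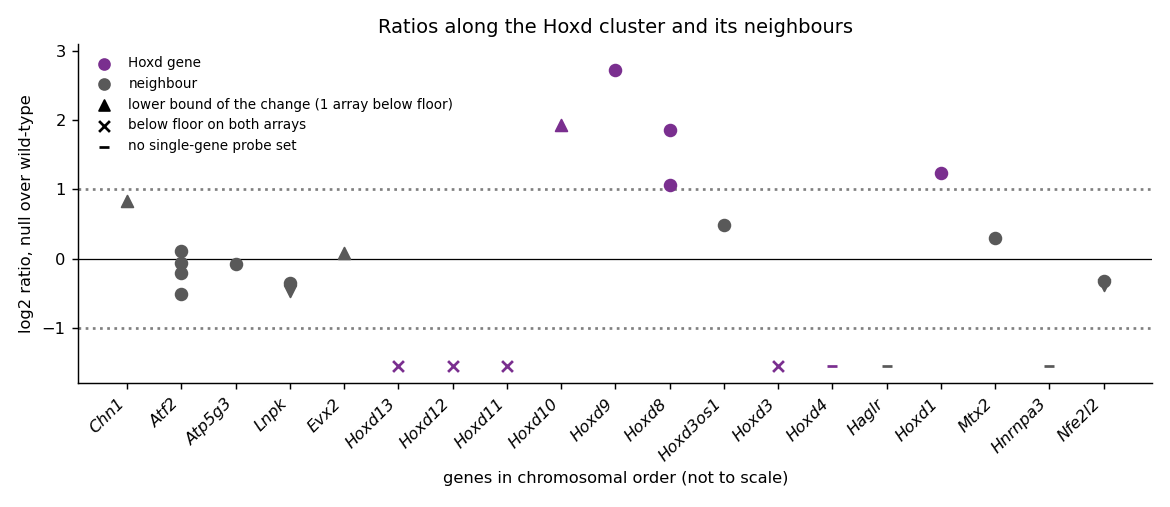
Log2 ratio of signals, Bmi1 null over Bmi1 wild-type, for each measured probe set of the Hoxd genes (purple) and their neighbours (grey) in chromosomal order, not to scale. Triangles are lower bounds, crosses mark genes below the floor on both arrays, short bars genes without a probe set of their own, and dotted lines 2-fold. Hoxd10, Hoxd9, Hoxd8 and Hoxd1 lie above the upper dotted line, with Hoxd9 at 2.72, and no neighbour is drawn beyond either line. The true positions of those drawn as bounds (Chn1, Evx2 and dimmer probe sets of Lnpk and Nfe2l2) may lie beyond.

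Motifs were searched on both strands of the 10 Hoxd windows. CCAAT, the core of the site bound by NF-Y, was found in 7 of them, against 37.4% of all windows. The E-box CACGTG was found in 5 (7.15% of all windows), those of Hoxd1, Hoxd4, Hoxd10, Hoxd11 and Hoxd13. Of these genes only Hoxd1 and Hoxd10 were measured. CACGTG holds a CpG, and the median CpG count was 20 in the Hoxd windows against 7 over all windows. The share over all windows is therefore not a like background for it. TATAA was found in 3 (24.9%). GCCATNTT, a site of YY1, was found once, in Hoxd10, at position -42 from the start (6.05% of all windows). TTTATNG, a site of Cdx and posterior Hox proteins, was found only in Hoxd4 (10.9%), and TGATTNAT, a joint site of Pbx and Hox proteins, only in Hoxd11 (3.22%). In Hoxd4 one TTTATNG match overlapped a CCAAT match, and the TATAA matches of Hoxd4 and Hoxd13 on the opposite strands overlapped each other. A match is a description of the letters and says nothing of binding.

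Other Hox clusters were set beside Hoxd to ask whether the pattern along it is shared. In the A, B and C clusters 18 of 25 genes with a probe set of their own were measured, 14 reached 2-fold in the higher direction and 0 in the lower. Of these 18, however, 7 passed the floor only through the null signal and could only count as higher, and 6 of them are among the 14. Of the 11 genes above the floor on both arrays, 8 reached 2-fold in the higher direction and 0 in the lower, with a median log2 ratio of 1.53. In Hoxd the same held for 3 of 3 genes, with a median of 1.24. The 14 of 18 can be set against 5.73% (higher) and 5.16% (lower) of all measured genes, where bounds also count. For the 11 and the 3 genes above the floor on both arrays, no matching background share was computed. The difference between clusters was not tested. As in Hoxd, the posterior end was mostly unmeasured, since 1 of 4 genes of groups 11 to 13 with a probe set in the A, B and C clusters was measured, Hoxa11, at 301 in null MEFs and 104 in wild-type MEFs. Groups 1 to 4 differed in coverage, with 6 of 8 genes measured in the other clusters and 5 of these at least 2-fold higher, against Hoxd1 alone of 2 in Hoxd.

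Direct paralogues were set side by side group by group. In group 9, Hoxd9 was 6.60-fold higher and the bounds were at least 4.96-fold for Hoxb9 and at least 3.08-fold for Hoxc9, while the 2 Hoxa9 probe sets disagreed. The Hoxa9 probe set brighter on average read 245 in null MEFs and 288 in wild-type MEFs, 1.17-fold lower, and the other read 464 in null MEFs and 4.87 in wild-type MEFs, at least 4.64-fold higher. In group 10, the bounds were at least 3.82-fold for Hoxd10, at least 5.85-fold for Hoxa10 and at least 1.82-fold for Hoxc10. All 3 genes were below the floor in wild-type MEFs, so the bounds give no order. In group 8, Hoxc8 was at least 9.03-fold higher, with 903 in null MEFs and 94.5 in wild-type MEFs, and Hoxd8, above the floor on both arrays, was 2.10-fold higher. In group 3, Hoxb3 was 3.79-fold higher and Hoxa3 at least 2.20-fold at its brightest probe set, with its other measured probe sets between at least 1.09-fold lower and at least 1.34-fold higher, while Hoxd3 was not measured. In group 13 no gene of any cluster was measured.

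**Figure D3:**
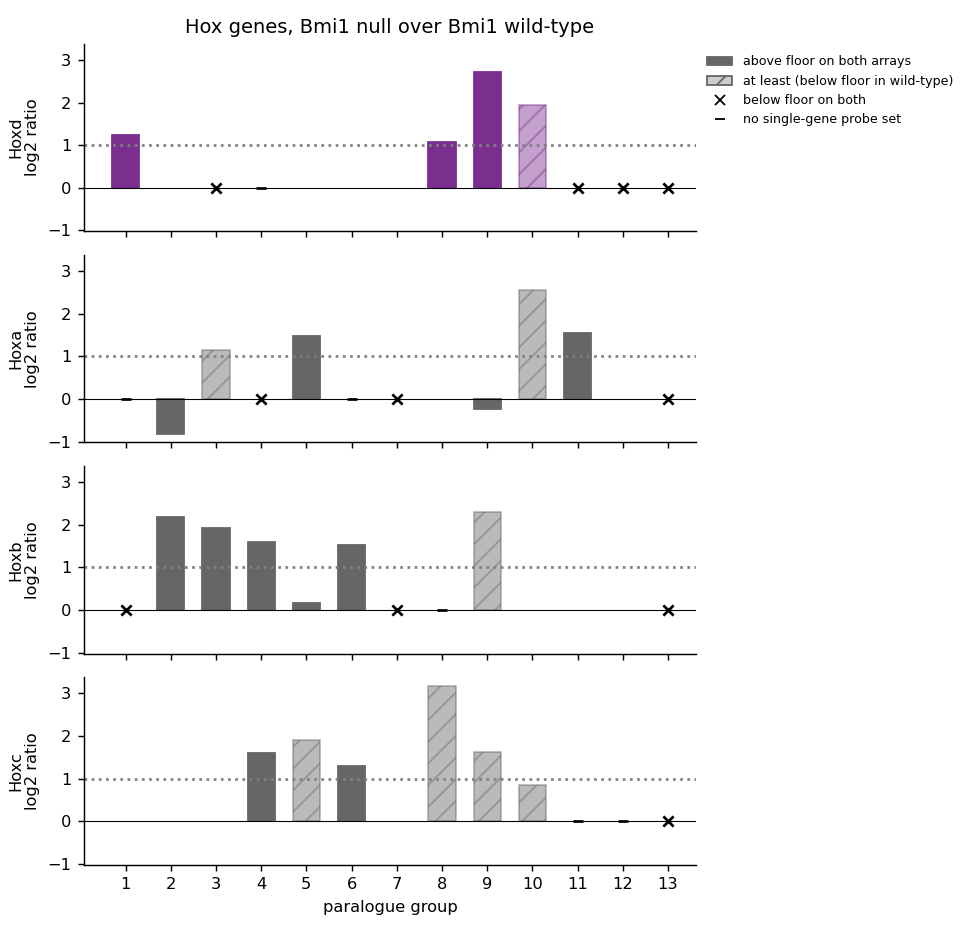
Log2 ratio of signals, Bmi1 null over Bmi1 wild-type, for the brightest probe set of each Hox gene by paralogue group, 1 panel per cluster with Hoxd on top. Solid bars are genes above the floor on both arrays, hatched bars are lower bounds for genes below the floor in wild-type MEFs, crosses are genes below the floor on both arrays, short marks are genes without a probe set of their own, and the dotted line is 2-fold. Bars rise above the line in all 4 panels, but not every bar reaches it, and groups 12 and 13 hold none. The bars of Hoxa2 (-0.82) and Hoxa9 (-0.23) point down.

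The partners and regulators of Hox genes were examined in the same way. Of 9 TALE homeodomain cofactors, the proteins that bind DNA together with Hox factors, 7 were measured, 0 reached 2-fold in the higher direction and 1 in the lower (median log2 ratio -0.11). This was Meis1, with 217 in null MEFs and 504 in wild-type MEFs, 2.33-fold lower, although another Meis1 probe set was only 1.06-fold lower (106 and 113). Of 16 known activators of Hox clusters, among them retinoic acid receptors, Cdx factors and the Kmt2a methyltransferase complex, 12 were measured and 0 differed at least 2-fold (median -0.09). The retinoic acid receptor Rarb, itself a retinoic acid target, came nearest, with 364 in null MEFs and 186 in wild-type MEFs, 1.95-fold higher. The Kmt2a methyltransferase, which keeps Hox genes active, read 599 in null MEFs and 614 in wild-type MEFs. For the cofactor and activator lists the background shares are 5.73% higher and 5.16% lower, over all measured genes. With 7 and 12 genes, the counts do not set these lists apart from those shares.

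Polycomb subunits other than Bmi1 were mostly close between the lines. Of 18 measured PRC1 genes, 0 reached 2-fold in the higher direction and 2 in the lower (median 0.01), Bmi1 and Cbx7, a chromodomain subunit that read 102 in null MEFs and 214 in wild-type MEFs. Pcgf2, the closest relative of Bmi1 and a known regulator of Hox genes, read 179 in null MEFs and 129 in wild-type MEFs, 1.38-fold higher. Of 14 measured PRC2 and H3K27 demethylase genes, 0 were higher by 2-fold or more and 2 were lower by that much (median -0.14), the Y-linked Uty and Ezh1, with 369 in null MEFs and 787 in wild-type MEFs. For both groups the shares to read these counts against are 5.73% higher and 5.16% lower over all measured genes.

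Cell identity was checked with marker genes. All 15 fibroblast markers were measured, and Vim (19233 in null, 19519 in wild-type MEFs), Fn1 (12777 in null, 14137 in wild-type MEFs) and Postn (15721 in null, 16822 in wild-type MEFs) were close between the lines at their brightest probe sets, although another Fn1 probe set was 2.01-fold lower (369 in null, 741 in wild-type MEFs). Col3a1 was 4.38-fold higher and Lum at least 7.29-fold higher in null MEFs, whereas Pdgfra was 9.31-fold lower and Thy1 at least 3.75-fold lower. Of markers of other cell types, 3 of 11 epithelial, 5 of 8 endothelial, 3 of 7 blood, 8 of 9 neural and glial, 5 of 9 muscle and 4 of 8 cartilage and bone genes were measured. Summed signal was 10449 in null and 4718 in wild-type MEFs for the neural and glial list, 4376 and 1053 for the cartilage and bone list, and lower in null MEFs for the epithelial (1560 and 1846), endothelial (656 and 785), blood (875 and 1560) and muscle (2187 and 2738) lists. A few genes made up most of the higher sums, Ncam1 (5256 in null, 2340 in wild-type MEFs) and Map2 (2132 and 243) in the first and Col11a1 (3794 and 729) in the second. In the neural and glial list 3 of the 8 measured genes were at least 2-fold higher and 1, Tubb3, was 2.70-fold lower. Nefm, among the 3, was below the floor in wild-type MEFs, so it could only count as higher. The shares to set beside this count are 5.73% higher and 5.16% lower over all measured genes, and the difference was not tested. In the muscle list Tnnc1 was 2.54-fold higher and Acta1 2.17-fold lower. The endothelial Cdh5 was at least 2.08-fold lower and the blood cell marker Cd14 2.24-fold lower. The epithelial sum joined opposite differences. Epcam read 834 in null and 149 in wild-type MEFs, 5.59-fold higher, at its brighter probe set. The dimmer one gave only 11.5 in null and 5.82 in wild-type MEFs and counts as not measured. Perp read 244 in null and 1295 in wild-type MEFs, 5.31-fold lower. The part of these differences in the Hoxd values was not tested, and in a bulk sample more cells that express a gene and more RNA per cell cannot be told apart.

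The setting that moved a Hoxd ratio most differed from gene to gene. It was no floor for Hoxd10 (7.66), the doubled floor for Hoxd1 (0.61), the mean of probe sets for Hoxd8 (1.47) and the pseudocount for Hoxd9 (2.41). Under median centring the log2 ratios were 1.26 for Hoxd1, 1.09 for Hoxd8, 2.75 for Hoxd9 and at least 1.95 for Hoxd10, and under quantile normalisation they were 1.24, 1.05, 2.75 and at least 1.94 in the same order. Hoxd9 stayed between 2.41 and 2.75 in every setting run. Hoxd8 stayed between 1.03 and 1.47.

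**Figure D4:**
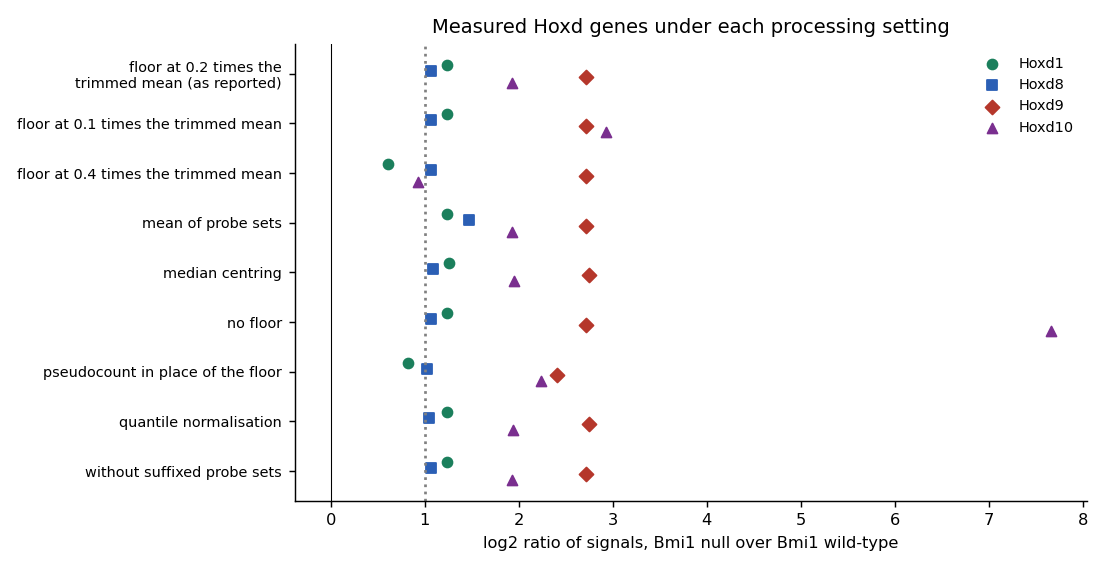
Log2 ratio of signals, Bmi1 null over Bmi1 wild-type, of the 4 measured Hoxd genes (symbols) under the reported setting, at the top, and under each alternative. The dotted line is 2-fold, and Hoxd10 values are lower bounds wherever a floor was used. Hoxd9 stays at 2.41 or higher, Hoxd1 drops to 0.61 with the higher floor and 0.82 with a pseudocount, and Hoxd10 moves from 0.93 to 7.66 with the floor because its wild-type signal is near 0.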

How the data were processed

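Biotinylated cRNA made from total RNA of each line had been hybridised to an Affymetrix Mouse Genome array. MAS5 is named in the submitters' processing notes, and the deposited intensities were linear, and each array had been scaled as a whole by the authors, since the mean after removal of 2% of values at each end was 500 on both. How that scaling was set is not given in the sources used here. The array held 45101 probe sets, of which 34958 were annotated to a single gene symbol, 932 to several and 9211 to none. Symbols were checked by Entrez identifier against RefSeq (GRCm38.p6), where 34754 were found and 0 changed.

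Signals below 0.2 times the trimmed mean (100) were set to that floor before log2 ratios, null over wild-type, were taken. For a gene with several probe sets, the one brightest on average over both arrays (log2) stood for it. With 1 array per group no test was possible, and a difference of at least 2-fold is a description. The spread between the 2 brightest probe sets of a gene (SD of their difference over the square root of 2) covers probe error only, and the single array per line sets every other limit of precision. Ratios and counts were tested on simulated data (Python 3.11.15, pandas 2.3.3). All 9 Hoxd genes, Bmi1, the listed neighbours and measured Hox paralogues could be named, and from other lists up to 4 members that differed at least 2-fold, largest first, and defining fibroblast markers. Genes outside this rule, such as Hoxa2, Rarb, Kmt2a, Pcgf2 and the sex-linked genes, were named after their values were seen. The members and lists were chosen with earlier results of these data known. Other floors, a pseudocount, no floor, other scalings and other probe set rules were tried as alternatives.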

Additional observations from a re-analysis of the deposited data

How the results depend on the processing

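No paired analysis was possible because each group holds 1 array. Doubling the floor, to 0.4 times the trimmed mean, left 2 of 4 measured Hoxd genes (Hoxd8 and Hoxd9) and 3 probe sets at least 2-fold higher, with a median log2 ratio of 1. With the floor halved the median was 1.15, since the floor then lets in Hoxd genes of lower signal. Without a floor all 8 genes and 10 probe sets had a ratio, the median was 1.15, and 1 gene and 1 probe set (Hoxd12) were at least 2-fold lower, from signals of 6.28 and 13.4. Without a floor 2347 of all genes reached 2-fold in the higher and 1580 in the lower direction, against 674 and 607 as reported. With a pseudocount of 100 all 8 genes and 10 probe sets had a ratio and the median was 0.61, with 3 genes still at least 2-fold higher. Median centring, quantile normalisation, the mean of probe sets, the omission of suffixed probe sets and the shared Hoxd3 and Hoxd4 probe sets, the last added after the data were seen, left the counts of Hoxd genes and probe sets called higher within 1.5 times of those reported. In all, 83 of 104 values under alternatives stayed within the spread between probe sets or within 1.5 times of the reported count, and 21 moved further. Only the ratios among these values have a direction, and 0 of the ratios turned. A floor or a pseudocount cannot change which array is higher at a probe set, so this was largely fixed in advance. Signals near the floor limit what can be said of Hoxd1 and Hoxd10, and with 1 array per line no spread between cultures is known.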

Other observations

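Genes that pattern the limb, where Hoxd genes have their best-known roles, differed in both directions. Of 27 with a probe set of their own 16 were measured, 5 were higher by 2-fold or more in Bmi1 null MEFs and 2 were lower by that much. Over all measured genes the shares were 5.73% higher and 5.16% lower. Msx1 among the 5 (232 in null, 32.4 in wild-type MEFs) and Fgf10 among the 2 (94.8 and 224) passed the floor on 1 array only. Their direction was thereby fixed. The median log2 ratio of the 16 measured limb genes was -0.02. The homeobox gene Prrx2 read 1761 in null MEFs and 255 in wild-type MEFs, 6.90-fold higher. The ephrin receptor Epha7 read 977 in null MEFs and 290 in wild-type MEFs, 3.37-fold higher, and its other measured probe sets were between at least 1.15-fold and 2.89-fold higher. Shox2, a homeobox gene of the upper limb, read 1741 in null MEFs and 632 in wild-type MEFs, 2.75-fold higher. The BMP antagonist Grem1 read 544 in null MEFs and 2362 in wild-type MEFs, 4.34-fold lower. The genes that mark the forelimb (Tbx5) and hindlimb (Tbx4) were below the floor on both arrays, and Pitx1, a hindlimb gene, read 113 in null MEFs and 50.5 in wild-type MEFs, at least 1.13-fold higher. Msx1, Fgf10, Tbx4, Tbx5 and Pitx1 were named after their values were seen.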
